A study of Mus musculus with 6 samples.

Results

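The genes described here encode the interleukins and their receptors. They are the protein-coding genes whose symbol begins with Il and a digit, with Il6, Il6ra and Il6st left out, and they number 79 of the 55401 genes measured, of which 21807 are protein coding. Of these 79 genes, 38 encode ligands (receptor antagonists such as Il1rn included), 39 encode receptor chains (decoys and receptor-like proteins included), 1 encodes a soluble inhibitor, Il18bp, and 1 encodes an enzyme, Il4i1. They were chosen by name and not by any measured value, though with earlier results of these data known.

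Poly(A) RNA was sequenced from heart tissue of C57BL/6 mice aged 6 to 8 weeks, 3 of them Ang II-induced and 3 of them controls, with 1 library per heart. Angiotensin II (Ang II) is a peptide hormone that constricts vessels and raises blood pressure, and it is used in mice to produce hypertension and an enlarged heart. Its dose, route and duration, the treatment of the control mice and their sex are not given in the sources used here, and no allele is named for either group. In its title the series names the compound corynoline with PPARα and NF-κB. No heart given that compound was analysed here, so the comparison asks which interleukin genes a heart transcribes and whether they differ between Ang II and control hearts.

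Deposited estimated counts summed to 51202916 to 63564869 in Ang II libraries and 53583726 to 57844780 in control libraries, and mitochondrial genes took 35.8% to 37.4% of them in Ang II and 37.3% to 47.6% in control libraries. Ang II heart 1 stood apart from the other 5 libraries: its median correlation with them was 0.907, against 0.945 to 0.953 for each other library, so results are also given without it. Cardiomyocyte markers (Myh6, Tnnt2, Actc1, Ryr2 and Ttn) summed to 20130 to 37270 CPM (counts relative to the scaled library size) in Ang II hearts and 24510 to 30400 CPM in control hearts. The library protocol speaks of adipose tissue, but adipocyte markers summed to 0 to 0.882 CPM in Ang II hearts and 1.95 to 2.95 CPM in control hearts. The 3 hearts of a group came from separate mice, so p-values weigh the group difference against the spread between these animals.

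Interleukins are secreted proteins through which immune, endothelial and stromal cells signal to each other. Most act on receptors built from a chain that binds one ligand and a chain shared by several ligands: the common gamma chain (Il2rg) serves interleukins 2, 4, 7, 9, 15 and 21, the common beta chain serves interleukins 3 and 5, and Il10rb serves interleukins 10 and 22 and the lambda interferons. Receptors of the interleukin 1 and 17 families signal through the adaptors MyD88 and Act1 to NF-κB, while most of the others signal through JAK kinases and STAT factors. In the heart, fibroblasts, endothelial cells, resident macrophages and infiltrating leukocytes are the known sources and targets, and interleukins 1, 11 and 33 are much studied in cardiac fibrosis and remodelling.

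Of the 79 genes, 62 had at least 1 start region in the RefSeq promoter table (GRCm38.p6), 77 regions in all, each running from 250 bases before to 50 bases after a transcription start. Those of Il1b, which encodes the inflammatory ligand interleukin 1 beta, and Il1rn, which encodes the antagonist that blocks the same receptor, are shown because both genes had the same order of levels among the control hearts and because the title names NF-κB, a factor known to act on inflammatory genes. The Il1b region is chr2:129371090-129371389 on the minus strand, with TATAAA in capitals, and the first of 3 Il1rn regions is chr2:24336610-24336909 on the plus strand, with TGAGTCA in capitals.
Il1b: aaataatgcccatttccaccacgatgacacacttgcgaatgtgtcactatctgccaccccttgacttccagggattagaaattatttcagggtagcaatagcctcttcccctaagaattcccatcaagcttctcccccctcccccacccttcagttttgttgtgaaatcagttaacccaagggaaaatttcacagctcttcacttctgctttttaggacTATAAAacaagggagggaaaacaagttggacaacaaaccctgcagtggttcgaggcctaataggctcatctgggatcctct
Il1rn: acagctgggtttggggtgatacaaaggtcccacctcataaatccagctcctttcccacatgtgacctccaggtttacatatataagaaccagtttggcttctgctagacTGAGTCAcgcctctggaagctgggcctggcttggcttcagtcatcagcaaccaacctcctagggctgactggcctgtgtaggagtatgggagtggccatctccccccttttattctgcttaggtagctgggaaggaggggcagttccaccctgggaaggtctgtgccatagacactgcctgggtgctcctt
Motifs were searched one by one on both strands, so that a region can count for several. GGGA and TTTCC with any 1 base between them, a strict form of the NF-κB site, stood in 1 of the 77 regions (1.3%, that of Il16), against 0.411% of the 32851 regions of all genes. TGANTCA, the AP-1 letters, stood in 13 of 77 (16.9%, against 7.81% of all). TTCNNNGAA, the STAT letters, stood in 10 of 77 (13%, against 8.3%) and TATAAA in 14 of 77 (18.2%, against 13.6%). Neither printed region holds that NF-κB form, which says only that these letters are not in these windows, and a match is not a shown binding site.

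A count above 0 in at least 1 library was recorded for 54 of the 79 genes (68.35%, against 75.42% of all protein-coding genes), and 33 had a count in all 6 libraries (41.8%, against 60.3%). The other 25 stood at 0 in all 6. Ang II hearts held a count for 47 of the genes and control hearts for 51. The matching shares of all genes by group were not computed. Over all genes, 19040, 20789 and 21064 had a count in Ang II hearts 1 to 3, against 19952, 20890 and 20162 in control hearts 1 to 3. By role, 30 of 39 receptor genes had a count and 23 had one in every library, while 22 of 38 ligand genes had a count and 9 had one in every library. Genes at 0 numbered 9 among the receptors and 16 among the ligands. In a bulk sample, fewer cells of a type and less RNA per cell cannot be told apart, and this holds for every level below.

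**Figure D1:**
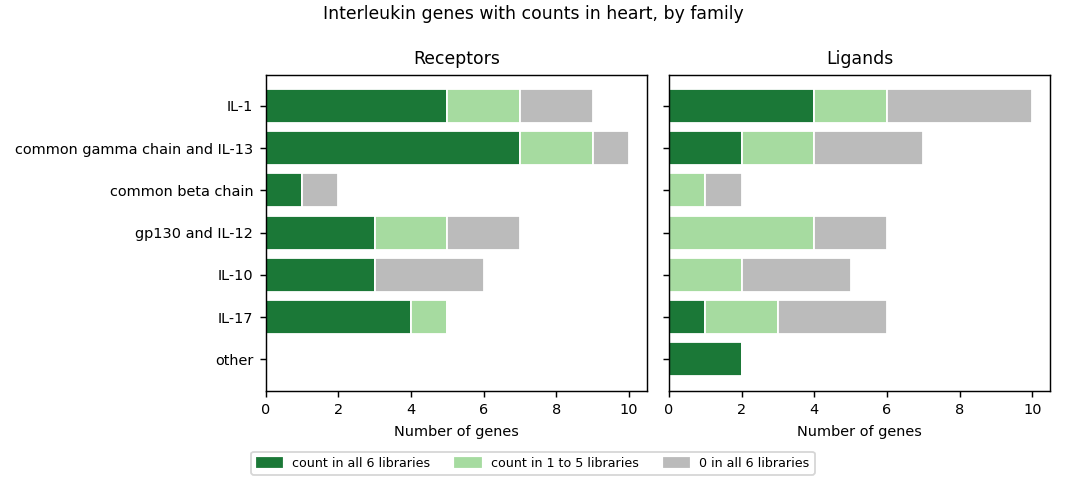
Number of interleukin receptor genes (left) and ligand genes (right) on the horizontal axis, by family, split into genes with a count in all 6 heart libraries, in 1 to 5 of them, and at 0 in all 6. Every one of the 5 receptor genes of the interleukin 17 family had a count, while 3 of its 6 ligand genes stood at 0.

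The 25 genes at 0 include the signature ligands of several T cell programmes: Il17a and Il17f of T helper 17 cells, Il13 and Il9 of type 2 and T helper 9 responses, Il21 of follicular helper cells and Il22 of barrier immunity. Both Il12b, the chain shared by interleukins 12 and 23, and its partner Il23a were at 0. So were Il17b, Il19, Il20, Il3 and the interleukin 1 family ligands Il1f5, Il1f6, Il1f8 and Il1f10, which belong to or neighbour the interleukin 36 group, a group best known from skin. Receptor chains at 0 were Il13ra2, the decoy for interleukin 13, Il1rapl1 and Il1rapl2, which are known from neurons, Il20ra, Il22ra1, Il22ra2, Il23r, Il31ra and Il5ra. Low counts here come in steps of about 4, so the limit for a count of 0 is set at 3 steps, 12 counts. That allows up to 0.189 to 0.234 CPM of the unscaled library totals and covers counting error only. For Il22, 41.0% of its 50-base words also occur in its copy Iltifb, so a 0 there is uncertain.

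A further 21 genes had counts in 1 to 5 libraries. The share of all genes with counts in 1 group only was not computed, so the lists below are not read as a group difference. Il24, Il27 and Il5 had counts in Ang II hearts and not in control hearts, in each case in 1 heart: 4 counts of Il24 in Ang II heart 3, 8 of Il27 in Ang II heart 1 and 5 of Il5 in Ang II heart 1. Il10, Il12rb1, Il12rb2, Il1a, Il1f9, Il2 and Il31 had counts in control hearts and not in Ang II hearts. Of these, Il10, the main anti-inflammatory interleukin, had 4 counts in control heart 3, Il2, the T cell growth factor, had 8 in control heart 2, and Il1a, an alarmin released by dying cells, had 6 in control heart 1. Il12rb1, the receptor chain shared by interleukins 12 and 23, had 8 and 4 counts in control hearts 2 and 3. Il12rb2 had 7 in control heart 2, but 40.0% of its exon bases lie opposite exons of Serbp1, and no source used here says that the counting used strand. The same holds for 27.1% of the exon bases of Il5 (opposite Gm12214), 11.2% of Il1a (Gm14023), 10.1% of Il27 (Apobr) and 4.0% of Il31 (Lrrc43). For Il2, 12.6% of its 50-base words also occur in Ntan1.

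Il1f9, which encodes interleukin 36 gamma, was the one gene of the 54 detected with counts in all 3 hearts of one group and none of the other: 0, 0 and 0 in Ang II hearts, against 7, 10 and 8 in control hearts. Among all 25846 genes with a count, 0.267% had this pattern and 0.302% had the opposite one. Il1f9 was too low for the test described below and was singled out after its values were seen. With the filter on low counts left out, edgeR gave it an unadjusted p of 0.0157 and an adjusted p of 0.681. Its receptor, Il1rl2, had counts in every heart, 83, 100 and 117 in Ang II hearts and 72, 77 and 105 in control hearts.

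Most of these genes that were detected were low. In FPKM, the fragments per unit of transcript length and library size, which corrects for gene length and so allows genes to be compared, 13 of the 79 had a mean of at least 1 FPKM over the 6 hearts and 30 a mean of at least 0.1 FPKM. The 13 were 9 receptors, 3 ligands and the inhibitor Il18bp. Over all members of a role, detected or not, the median of the mean level was 0.119 FPKM for receptors and 0.00769 FPKM for ligands.

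Il10rb, the chain shared by receptors of the interleukin 10 family, was the highest and the only one above 10 FPKM on average. Its FPKM was 8.47, 20.4 and 20.4 in Ang II hearts 1 to 3, against 11.8, 16.4 and 16.1 in control hearts 1 to 3. Ang II hearts 2 and 3 lay above all control hearts and Ang II heart 1 lay below them. It made up 17.1% to 31.9% of the summed FPKM of all 79 genes. Il11ra1, the receptor of interleukin 11, followed with 9.72, 9.58 and 10.2 FPKM in Ang II hearts and 7.35, 8.98 and 9.77 FPKM in control hearts. In Ang II heart 1 the order of the pair was turned round, so the highest place of Il10rb rests on the other 5 hearts.

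Next in FPKM came Il13ra1 (4.67 ± 0.641 in Ang II hearts and 3.97 ± 1.10 in control hearts; SD, n = 3 each, as in all such pairs), a chain of the receptor for interleukins 4 and 13. Il15, the growth and survival factor of natural killer and memory T cells, was the highest ligand, with 3.54 ± 1.04 FPKM in Ang II hearts and 4.51 ± 0.369 FPKM in control hearts. Il2rg stood at 3.56 ± 0.318 and 3.69 ± 1.10 FPKM in Ang II and control hearts, Il4ra at 3.00 ± 0.117 and 2.40 ± 0.585 FPKM, and Il15ra, which presents interleukin 15 to other cells, at 2.43 ± 0.581 and 2.69 ± 0.899 FPKM. These neighbours in the order lie within each other's spread over hearts, apart from Il2rg and Il4ra in Ang II hearts, where the lowest Il2rg value, 3.24 FPKM, was above the highest Il4ra value, 3.13 FPKM.

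From 1 to 2 FPKM on average lay Il18bp, which binds and blocks interleukin 18; Il1r1, the signalling receptor of interleukin 1; the ligand Il34; Il17rc, the second chain of the interleukin 17A receptor; the ligand Il17d; and Il3ra. Just below 1 FPKM were Il10ra, the ligand-binding chain for interleukin 10 (0.847 ± 0.0362 FPKM in Ang II hearts and 1.05 ± 0.241 FPKM in control hearts), and Il16, a chemoattractant that binds CD4 (0.872 ± 0.119 and 0.825 ± 0.118 FPKM). For Il16, 15.3% of exon bases lie opposite exons of Stard5. The 3 ligands above 1 FPKM on average were thus Il15, Il34 and Il17d.

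**Figure D2:**
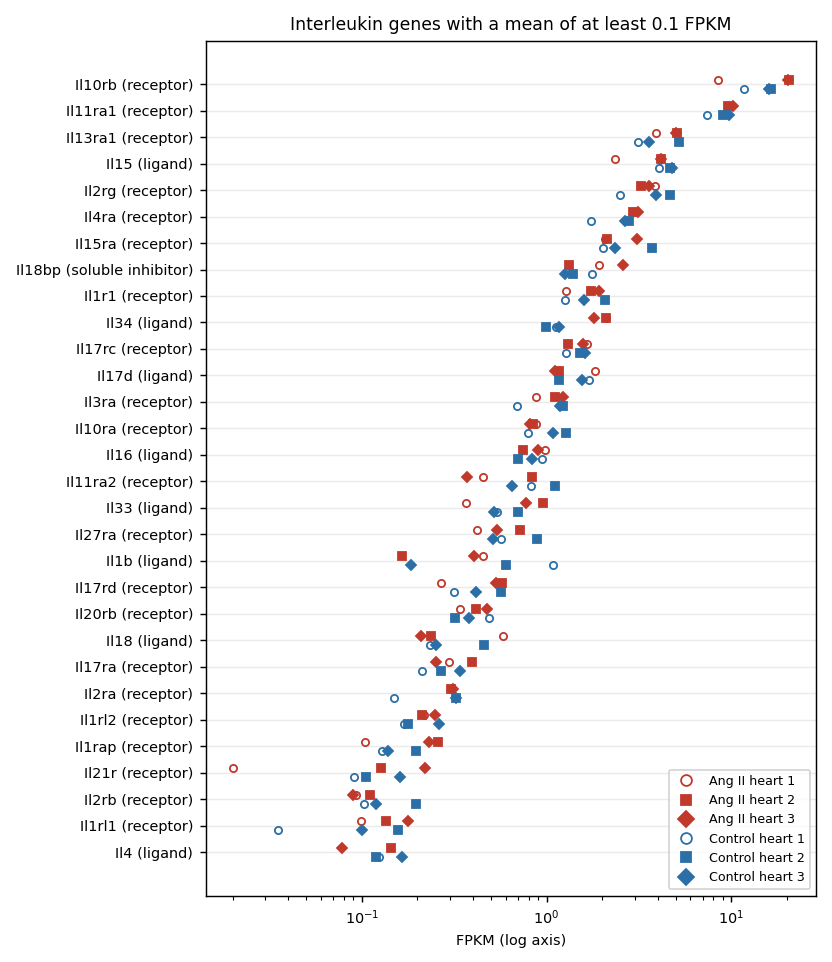
FPKM (log axis) of the 30 interleukin genes with a mean of at least 0.1 FPKM, highest at the top, with 1 point per heart and Ang II hearts drawn just above control hearts; a value of 0 (Il4 in Ang II heart 1) is not drawn. Il10rb spans 8.47 to 20.4 FPKM and only 8 of the 30 genes are ligands.

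Counts of all genes were compared between the groups with edgeR's quasi-likelihood test. After the filter on low counts, 16759 genes were tested, among them 36 of the 79: 25 receptors, 10 ligands and Il18bp. They are the 33 genes with counts in all 6 libraries and Il4, Il7r and Il18rap, which had a 0 in at least 1 library; the other 18 detected genes had at most 19 counts in any library. None of the 36 passed the threshold, an adjusted p of 0.05. Over all genes 6 did (0.0358%), so the background itself was near 0. DESeq2 called 276 genes (1.65%), and none of the 36.

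At an unadjusted p under 0.05, 1 of the 36 was higher in Ang II hearts, Il34, where 3.57% of all tested genes were, and 0 were lower, where 3.94% of all were. A single gene in 36 is near that background. The log2 change was above 0 for 19 of the 36 and below 0 for 17, with a median of 0.02, against 0.01 over all genes tested. For the 10 ligands the median was -0.27 and for the 25 receptors 0.02. Groups did not overlap in CPM for 2 genes with Ang II above, Il34 and Il4ra, where 7.97% of all genes had this pattern, and for 2 with Ang II below, Il15 and Il2rb, where 9.21% of all did.

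The test had little reach for changes of modest size. Among 195 simulated 4-fold changes with the spread of these libraries it called 60, and it called 0 of 194 simulated 2-fold changes and 0 of 211 simulated 1.5-fold changes. Of the 36 genes, 18 had a standard error (SE) under 0.3 on the log2 scale, and the largest log2 change among these was 0.81. Changes of up to 2-fold were thus not called in the simulation, which drew each gene independently and pooled genes of low and high spread. It sets no limit for a single gene, and such changes are not shown to be absent.

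**Figure D3:**
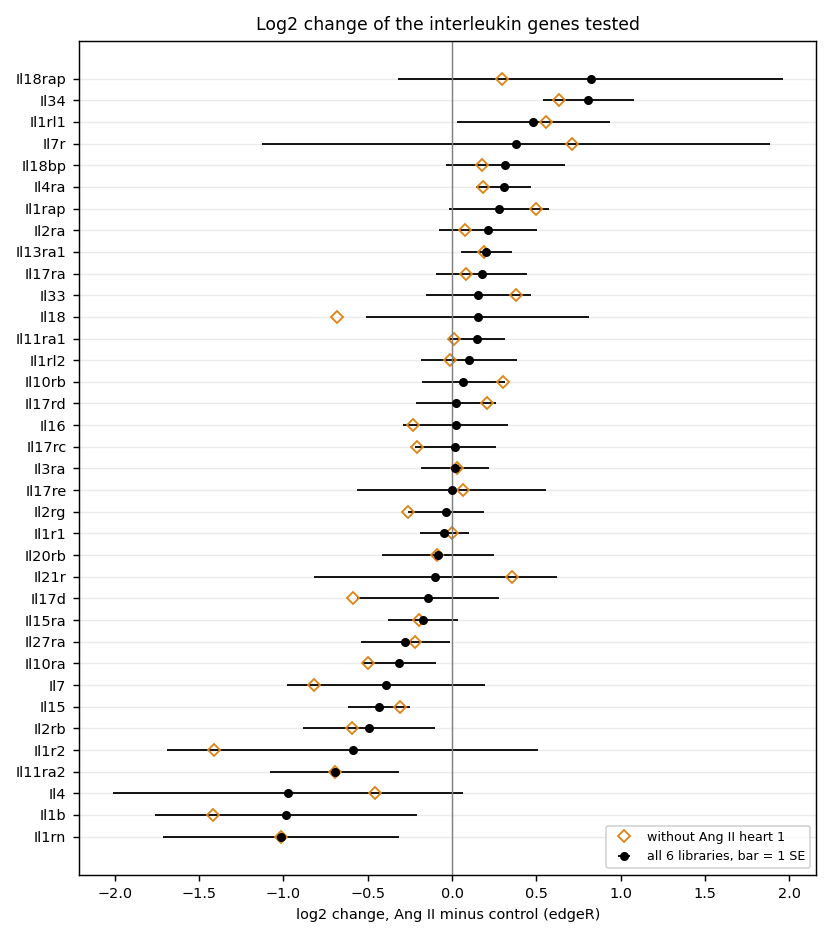
Log2 change (Ang II minus control, edgeR) of the 36 interleukin genes tested, ordered from highest to lowest; filled points with bars are the estimate and 1 SE with all 6 libraries, and open diamonds are the estimate without Ang II heart 1. The bars of Il34 (0.81, SE 0.27), Il4ra, Il13ra1 and Il1rl1 lie wholly above 0. Those of Il15, Il11ra2, Il1rn, Il10ra, Il1b, Il2rb and Il27ra lie wholly below 0, and none of these genes was called. For Il10rb the diamond (0.30) lies well away from the point (0.07).

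Il34 encodes a ligand of the macrophage growth factor receptor CSF1R, which in mice sustains Langerhans cells and microglia. The gene (ENSMUSG00000031750) spans chromosome 8 from 110741829 to 110805903 on the minus strand. Its CPM was 5.29, 4.10 and 3.46 in Ang II hearts 1 to 3, against 3.04, 1.88 and 2.42 in control hearts 1 to 3. Every Ang II heart lay above every control heart, with counts of 230, 288 and 246 in Ang II hearts and 139, 125 and 133 in control hearts. The means were 4.28 ± 0.930 CPM in Ang II hearts and 2.45 ± 0.583 CPM in control hearts, a log2 change of 0.81 (SE 0.27; edgeR unadjusted p = 0.0213, adjusted p = 0.571), so the gene did not pass. By unadjusted p it ranked 625 of 16759 genes. DESeq2 gave an adjusted p of 0.231. Without Ang II heart 1 the log2 change was 0.63 (adjusted p = 0.317), and over all alternatives it ran from 0.63 to 0.99.

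The receptors and the sister ligand of interleukin 34 are not named Il and were read from the same fit. Csf1r stood at 27.4 ± 8.24 CPM in Ang II hearts and 28.9 ± 2.82 CPM in control hearts (edgeR unadjusted p = 0.738), and Csf1, the other ligand of CSF1R, at 18.6 ± 9.64 and 25.8 ± 0.499 CPM (unadjusted p = 0.294). Ptprz1, another reported receptor, stood at 0.394 ± 0.118 CPM in Ang II hearts and 0.823 ± 0.0889 CPM in control hearts (unadjusted p = 0.0341, adjusted p = 0.623). The 8 macrophage markers summed to 461, 210 and 234 CPM in Ang II hearts 1 to 3 and 269, 294 and 280 CPM in control hearts 1 to 3. Of the 8, 0 were called. At an edgeR unadjusted p under 0.05, 1 was lower in Ang II hearts, where 3.94% of all tested genes were, and 0 were higher. Ang II heart 1 held both the highest Il34 value and the highest marker sum; the part of these cells in the Il34 values was not tested.

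Il15 had a lower CPM in every Ang II heart than in any control heart: 6.88, 9.27 and 9.09 CPM in Ang II hearts, against 12.6, 10.1 and 11.5 CPM in control hearts. The log2 change was -0.43 (SE 0.18; edgeR unadjusted p = 0.0512, adjusted p = 0.662), and -0.31 without Ang II heart 1. The separation holds in CPM on the scaled library sizes and not in the deposited FPKM, where Il15 had 2.34, 4.14 and 4.14 in Ang II hearts and 4.09, 4.68 and 4.76 in control hearts. Il2rb, the signalling chain that interleukins 2 and 15 share, also had no overlap in CPM, at 0.529, 0.484 and 0.380 CPM in Ang II hearts and 0.613, 0.796 and 0.545 CPM in control hearts, but from 23 to 53 counts a heart and with an unadjusted p of 0.248. In FPKM it overlapped, at 0.0893 to 0.111 in Ang II hearts and 0.103 to 0.195 in control hearts. Il15ra, at 11.6 ± 2.02 CPM in Ang II hearts and 13.0 ± 2.40 CPM in control hearts, overlapped (log2 change -0.17, SE 0.21). Il2rg, the third chain, did so too, at 9.287 ± 2.338 and 9.517 ± 1.296 CPM, and 27.5% of its 50-base words occur in the overlapping gene Gm20489, which had 0 counts.

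Markers of the cells that interleukin 15 acts on were scarce. Natural killer cell markers (Ncr1, Klrb1c and Nkg7) summed to 0 to 0.368 CPM in Ang II hearts and 0.0601 to 0.569 CPM in control hearts, and T cell markers to 0.998 to 1.35 CPM in Ang II hearts and 0.679 to 1.14 CPM in control hearts. Among the other common gamma chain genes, Il2ra stood at 1.90 ± 0.306 CPM in Ang II hearts and 1.63 ± 0.425 CPM in control hearts. Il7, which lymphocytes need to survive, stood at 0.270 ± 0.132 and 0.351 ± 0.0664 CPM. Il21r ran from 0.0920 to 0.717 CPM in Ang II hearts and from 0.345 to 0.582 CPM in control hearts. Il7r had 4, 18 and 18 counts in Ang II hearts and 0, 30 and 0 in control hearts, and Il9r had counts in 1 heart of each group.

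Il4ra, the chain through which interleukins 4 and 13 signal, was the other gene with every Ang II heart above the control hearts. Its CPM was 22.6, 17.4 and 18.2 in Ang II hearts, against 14.2, 16.0 and 16.9 in control hearts. The gap between the lowest Ang II heart and the highest control heart was smaller than the spread within either group. The log2 change was 0.31 (SE 0.16; edgeR unadjusted p = 0.108, adjusted p = 0.722), and 0.18 without Ang II heart 1. Its partner Il13ra1 stood at 18.5 ± 0.468 CPM in Ang II hearts and 16.0 ± 2.17 CPM in control hearts, with overlap (log2 change 0.20, SE 0.15). The ligand Il4 had 0, 13 and 7 counts in Ang II hearts and 10, 10 and 12 counts in control hearts, and Il13 and the decoy Il13ra2 had none.

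In the interleukin 1 family, the ligand Il1b and its antagonist Il1rn, whose start regions are printed above, were spread more widely over the control hearts than the group means lay apart. Il1b stood at 1.13, 0.313 and 0.759 CPM in Ang II hearts 1 to 3 and at 2.85, 1.11 and 0.382 CPM in control hearts 1 to 3. Il1rn stood at 0.299, 0.270 and 0.323 CPM in Ang II hearts and at 0.963, 0.706 and 0.145 CPM in control hearts. Both were highest in control heart 1 and lowest in control heart 3 within the control group, while the Ang II hearts had near-equal Il1rn. For Il1b the log2 change was -0.99 (SE 0.78; edgeR unadjusted p = 0.247), and -1.42 without Ang II heart 1. Without control heart 1 it was -0.04, so that this 1 library carries nearly all of the difference. For Il1rn it was -1.01 (SE 0.70; unadjusted p = 0.192), and -1.02 without Ang II heart 1. Leaving out control heart 1 gave Il1rn a log2 change of -0.52, and leaving out control heart 3 gave -1.48 (edgeR unadjusted p = 0.0230, adjusted p = 0.965).

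Neutrophils and monocytes are known sources of both. The 5 neutrophil markers (S100a8, S100a9, Csf3r, Cxcr2 and Ly6g) summed to 2.76, 4.69 and 3.19 CPM in Ang II hearts 1 to 3 and to 12.3, 7.48 and 4.09 CPM in control hearts 1 to 3. In control hearts that sum has the order of Il1b and Il1rn, and in Ang II hearts the order opposite to Il1b. Of the 4 markers tested, 0 were called. At an edgeR unadjusted p under 0.05, 1 was lower, where 3.94% of all tested genes were. The part of these cells in the Il1b and Il1rn values was not tested.

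The signalling receptor of interleukin 1 varied less. Il1r1 had 11.1 ± 0.709 CPM in Ang II hearts and 11.4 ± 0.997 CPM in control hearts, a log2 change of -0.04 (SE 0.15), the smallest SE of the 36. Il1rap, the accessory chain of the interleukin 1 and 33 receptors, stood at 1.54, 2.92 and 2.53 CPM in Ang II hearts and 1.99, 2.12 and 1.67 CPM in control hearts. Il1r2, the decoy, was low and scattered, with 13, 8 and 4 counts in Ang II hearts and 17, 20 and 1 in control hearts, and its SE of 1.10 was larger than those of Il1b and Il1rn.

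Il33 encodes an alarmin of stromal cells, and Il1rl1 its receptor ST2, whose soluble form is a clinical marker of heart failure. Il33 stood at 1.38, 2.72 and 2.15 CPM in Ang II hearts and 2.12, 1.92 and 1.58 CPM in control hearts, a log2 change of 0.16 (SE 0.31) and of 0.38 without Ang II heart 1. Fibroblast markers (Col1a1, Pdgfra, Dcn, Tcf21 and Lum) summed to 144, 427 and 406 CPM in Ang II hearts 1 to 3 and to 378 to 399 CPM in control hearts. Most of the sum is Dcn, at 69.2, 327 and 309 CPM in Ang II hearts and 279 to 297 CPM in control hearts. Of the 5, 0 were called. At an edgeR unadjusted p under 0.05, 2 (Col1a1 and Tcf21) were lower, where 3.94% of all tested genes were, and 0 were higher. Both Il33 and that sum were lowest in Ang II heart 1, and the part of these cells in the Il33 values was not tested. Il1rl1 stood at 0.897, 0.924 and 1.20 CPM in Ang II hearts and 0.350, 1.05 and 0.745 CPM in control hearts, with overlap (log2 change 0.48, SE 0.45). It was 0.16 without control heart 1 and 0.87 without control heart 2. The counts do not separate its soluble from its membrane form.

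For interleukin 18, the inhibitor was more abundant than the ligand. Il18bp had 7.57, 3.95 and 7.58 CPM in Ang II hearts and 7.27, 4.01 and 4.07 CPM in control hearts (log2 change 0.32, SE 0.35). With 1 library left out the log2 change ran from 0.17 without control heart 2 to 0.65 without control heart 1. In FPKM, which allows for length, Il18bp had 1.95 ± 0.630 in Ang II hearts and 1.47 ± 0.259 in control hearts, and Il18 had 0.342 ± 0.205 and 0.314 ± 0.123. Of the receptor chains, Il18r1 had 6, 8 and 0 counts in Ang II hearts and 12, 19 and 0 in control hearts, and Il18rap 37, 18 and 33 in Ang II hearts and 21, 28 and 0 in control hearts.

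**Figure D4:**
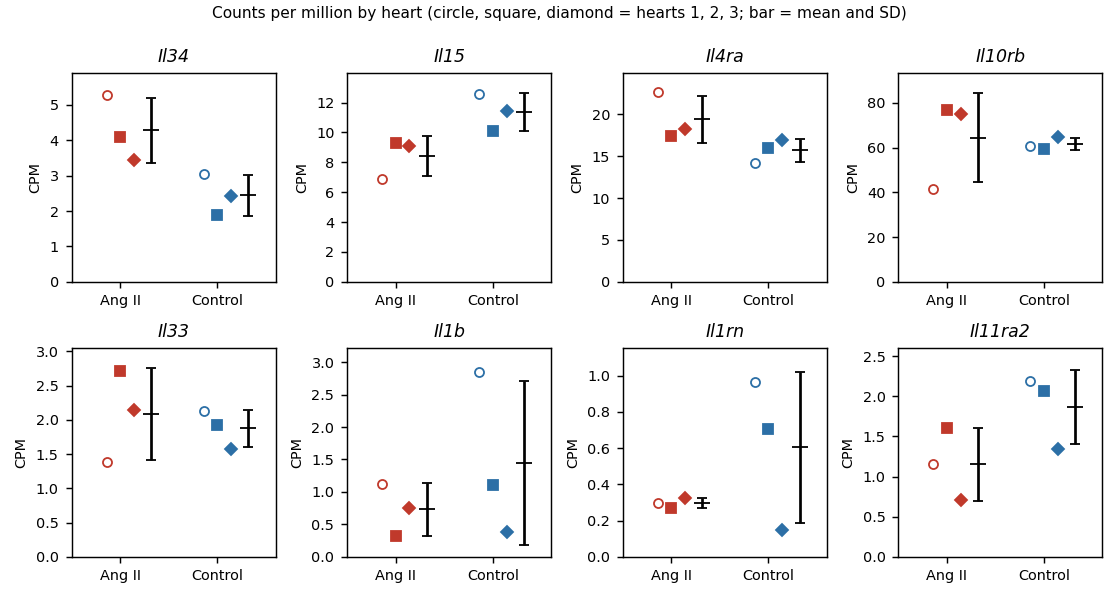
CPM of 8 interleukin genes in each heart, Ang II hearts left and control hearts right in each panel, with the group mean and SD beside the points (n = 3). Il34 and Il4ra have no overlap with Ang II above and Il15 none with Ang II below, while Il10rb, Il33, Il1b, Il1rn and Il11ra2 overlap.

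Il11, a fibrosis-linked ligand that acts on fibroblasts, was barely detected: 8, 4 and 0 counts in Ang II hearts and 7, 8 and 0 counts in control hearts. Its receptor Il11ra1 was among the highest of all, at 47.6 ± 7.51 CPM in Ang II hearts and 43.0 ± 4.28 CPM in control hearts (log2 change 0.15, SE 0.17, and 0.01 without Ang II heart 1). The near-identical copy Il11ra2 stood at 1.15, 1.61 and 0.703 CPM in Ang II hearts and 2.19, 2.07 and 1.34 CPM in control hearts (log2 change -0.69, SE 0.38; edgeR unadjusted p = 0.114, adjusted p = 0.728). All of the 1250 distinct 50-base words of Il11ra2 transcripts (100%) also occur in Il11ra1 or Gm13305, as do 46.3% of those of Il11ra1. The division of counts between these copies is therefore uncertain. Of the interleukin 12 group, Il27ra stood at 2.08 ± 0.356 CPM in Ang II hearts and 2.52 ± 0.543 CPM in control hearts. Il12a, whose protein pairs with that of Il12b, had 8, 8 and 14 counts in Ang II hearts and 8, 0 and 4 in control hearts.

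In the interleukin 10 family, Il10rb stood at 41.6, 76.7 and 75.0 CPM in Ang II hearts 1 to 3 and 60.8, 59.3 and 64.7 CPM in control hearts 1 to 3. With all hearts the log2 change was 0.07 (SE 0.25). Without Ang II heart 1 it was 0.30 (SE 0.08; edgeR unadjusted p = 0.0118, adjusted p = 0.189), so that 1 library decides the size. The read-through gene Gm21970, which shares most of the 13.9% of Il10rb words found elsewhere, had 0 counts. Il10ra, which is made mostly by leukocytes, stood at 4.002, 2.930 and 2.741 CPM in Ang II hearts and 3.786, 4.219 and 3.999 CPM in control hearts (log2 change -0.31, SE 0.22). Without Ang II heart 1 that became -0.50 (unadjusted p = 0.0246, adjusted p = 0.249). Il20rb stood at 1.84 ± 0.111 CPM in Ang II hearts and 1.95 ± 0.801 CPM in control hearts.

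Without Ang II heart 1, 17661 genes were tested and 129 called (0.73%), among them none of the 37 interleukin genes tested. At an unadjusted p under 0.05, Il10rb and Il34 were higher, where 7.75% of all genes were, and Il10ra was lower, where 7.6% of all were. The 2 of 37 higher and 1 of 37 lower are again close to or under that background.

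All 5 receptor genes of the interleukin 17 family had counts, while Il17a, Il17b and Il17f had none. Il17ra, the chain shared by most receptors of the family, stood at 2.95 ± 0.707 CPM in Ang II hearts and 2.61 ± 0.447 CPM in control hearts. Il17rc stood at 4.44 ± 1.20 and 4.38 ± 0.425 CPM (log2 change 0.02, SE 0.24), and Il17rd, known as an inhibitor of fibroblast growth factor signalling, at 5.21 ± 1.26 and 5.13 ± 0.659 CPM. Il17re had 13, 25 and 24 counts in Ang II hearts and 7, 29 and 22 in control hearts, and Il17rb, the receptor chain for interleukin 25, had 8, 0 and 6 in Ang II hearts and 4, 4 and 0 in control hearts. Among the ligands, Il17d stood at 3.01, 1.48 and 1.38 CPM in Ang II hearts and 2.96, 1.41 and 2.09 CPM in control hearts (log2 change -0.14, SE 0.42). Il17c and Il25 each had counts in 1 heart of each group, 7 at most.

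Il3ra, the only receptor named Il in the common beta chain group with counts, stood at 3.40 ± 0.140 CPM in Ang II hearts and 3.36 ± 0.502 CPM in control hearts. The common beta chain itself, Csf2rb, is not named Il. It stood at 0.454 ± 0.411 CPM in Ang II hearts and 0.523 ± 0.340 CPM in control hearts. Il16 had 9.96, 5.79 and 6.82 CPM in Ang II hearts and 10.1, 5.27 and 6.92 CPM in control hearts (log2 change 0.02, SE 0.31), with heart 1 of each group the highest. Il4i1, an amino acid oxidase of antigen-presenting cells, had 12 counts in Ang II heart 2 and 2 in control heart 2, and 83.9% of its exon bases lie opposite exons of Tbc1d17.

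Downstream and partner genes were read from lists of related genes, and 0 were called in each. The 16 genes that process interleukin 1 or carry its signal had a median log2 change of -0.09. At an edgeR unadjusted p under 0.05, 2 of them were higher in Ang II hearts and 0 were lower. Of all tested genes 3.57% were higher and 3.94% lower at that level. The inflammasome adaptor Pycard had 8.25 ± 1.91 CPM in Ang II hearts and 4.69 ± 0.527 CPM in control hearts (edgeR unadjusted p = 0.00785, adjusted p = 0.487), and Irak3, which restrains this signal, had 6.28 ± 0.302 and 4.55 ± 0.165 CPM (unadjusted p = 0.0215, adjusted p = 0.572). Casp1, which cleaves interleukins 1 beta and 18, had 2.35 ± 1.14 CPM in Ang II hearts and 2.76 ± 0.798 CPM in control hearts.

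Of the 20 JAK, STAT and SOCS genes tested, 2 were higher and 2 lower at that level, with a median of -0.05. The shares of all tested genes at that level were 3.57% higher and 3.94% lower. Jak1 had 89.2 ± 12.4 CPM in Ang II hearts and 65.0 ± 3.49 CPM in control hearts, and Socs2 had 23.3 ± 3.95 and 16.5 ± 0.730 CPM. Stat2, of the interferon response, had 8.64 ± 2.77 CPM in Ang II hearts and 15.3 ± 2.22 CPM in control hearts, and Socs3, a feedback inhibitor induced by STAT3, had 4.96 ± 1.54 and 10.9 ± 4.75 CPM. Their adjusted p ran from 0.544 to 0.593. Stat6, which interleukins 4 and 13 activate, had 39.0 ± 3.61 CPM in Ang II hearts and 36.4 ± 2.93 CPM in control hearts. None of the 5 interleukin 17 adaptor genes reached an unadjusted p under 0.05. Among the 10 partner genes not named Il, 1 did, Ptprz1.

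Marker sums of red cells, endothelial cells and adipocytes did not overlap between the groups. The 4 red cell markers summed to 383 to 519 CPM in Ang II hearts and 692 to 1745 CPM in control hearts. All 4 were lower at an edgeR unadjusted p under 0.05, where 3.94% of all tested genes were. The 6 endothelial markers summed to 469 to 535 CPM in Ang II hearts and 607 to 650 CPM in control hearts, and 4 of the 6 were lower at that level. None of either list was called. The 3 adipocyte markers summed to 0 to 0.882 CPM in Ang II hearts and 1.95 to 2.95 CPM in control hearts. At the same level 1 of 3 adipocyte markers was lower and 1 of 5 cardiomyocyte markers higher, with 0 called. Of all tested genes 3.57% were higher at that level. Mural, B cell and mast cell marker sums overlapped between the groups, at 370 to 552, 0.984 to 2.71 and 1.58 to 2.30 CPM in Ang II hearts, against 494 to 600, 1.29 to 2.49 and 1.79 to 2.16 CPM in control hearts; of the 4 mast cell markers Fcer1a was at 0 in all libraries. The part of these cells in the interleukin values was not tested.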

How the data were processed

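The authors deposited 1 table with an estimated count and an FPKM value per gene and library, per the file headers. The deposited estimated counts are whole numbers, and low ones come in steps of about 4: 4 was the most frequent low value in each library, held by 1005 to 1151 genes, against 148 to 198 genes at 5. The cause of the steps was not tested, and limits for a count of 0 are given for 12 counts. In the authors' FPKM values 0.0001 stands for 0. Per the submitters' processing notes the tools were StringTie 1.3.0, HISAT2 2.0 and Bowtie 0.12.2, with no role given for any. The notes name build mm8, but 94.2% of 55141 shared gene IDs, and 82.3% of the 79 genes described, have GRCm38 coordinates of GENCODE M21; gene positions are those of the deposited table. Strandedness is not given in the sources used here. No sample was left out, and no column was unused.

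Counts were tested with edgeR 4.0.16 (TMM, filterByExpr, quasi-likelihood, two-sided, Benjamini-Hochberg over all 16759 genes, threshold 0.05) in R 4.3.3. CPM uses the TMM-scaled library sizes, and SE was derived from the log2 change and its test statistic. DESeq2 1.42.0 and limma 3.58.1 were alternatives; counts divided by 4 were added after the data were seen. Tested on simulated data, edgeR called 2 of 49677 unchanged genes. Shared sequence was counted as 50-base words of GENCODE transcripts. Figures were drawn with matplotlib 3.10.9. The members and lists were chosen with earlier results of these data known. Genes named are those with an unadjusted p under 0.05, the 12 with the highest mean FPKM, and a preset list of well-known members; members at 0 or in few libraries are also named, and others were chosen after their values were seen.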

Additional observations from a re-analysis of the deposited data

How the results depend on the processing

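No interleukin gene was called by edgeR, DESeq2 or limma under any alternative run. Over all genes, the 6 calls became 276 with DESeq2, 3 and 2 with limma on log2(FPKM + 0.5) and log2(FPKM + 0.1), 12 with no filter on low counts, 11 with counts divided by 4, 0 with the replicate number as a block, and 0 to 129 with 1 library left out, 129 of them without Ang II heart 1. To look for pairing, each gene's group mean was subtracted from its log2 CPM, and these deviations were correlated between Ang II and control hearts. Correlations of the deviations were 0.0777, 0.112 and -0.0372 for same-numbered hearts. For hearts with different numbers they ran from -0.128 to 0.0755. With 3 hearts in each group these values cannot decide whether the replicate numbers pair the hearts. The 1 interleukin gene at an unadjusted p under 0.05 became 2 with no filter (Il34 and Il1f9) and 1 to 3 with 1 library left out. Without control heart 2 or 3, Il34 itself missed that level in edgeR (unadjusted p = 0.0678 and 0.0565). The 54 detected genes became 36 with a minimum of 10 counts in 3 libraries and 31 with at least 0.1 FPKM in 3 libraries. Of 19 genes whose log2 change is given, 12 kept its sign in each alternative that gave a value and 7 did not; Il1b, Il1rl1 and Il1rn gave none with limma, nor Il1rn with counts divided by 4. Of the 12, Il1b stood at -0.0419 without control heart 1, Il15ra ran from -0.29 to -0.02, Il11ra2 from -1.02 to -0.43 and Il13ra1 from 0.11 to 0.31 with 1 library left out. With 1 library left out, Il10rb ran from -0.077 to 0.302, Il16 from -0.23 to 0.30, Il17d from -0.59 to 0.15, Il17rc from -0.21 to 0.17, Il1r1 from -0.0956 to 0.0311, Il2rg from -0.259 to 0.0868 and Il33 from -0.082 to 0.378. The replicate block gave -0.0075 for Il17rc, and limma with either pseudocount gave 0.0035 and 0.0055 for Il1r1. The cause was not tested.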

Other observations

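Il7r, the receptor chain of interleukin 7, had counts in 1 control heart, and its difference hung on it: without control heart 2 both remaining control hearts stood at 0 and it reached an unadjusted p of 0.0163 in edgeR (adjusted p = 0.698). Il11ra2 reached an unadjusted p of 0.0477 without Ang II heart 2, with a log2 change of -1.02 (adjusted p = 0.658). Summed over all 79 genes, interleukin transcripts took 208, 272 and 286 CPM of the unscaled totals in Ang II hearts 1 to 3 and 194, 269 and 244 CPM in control hearts 1 to 3, with the lowest value in heart 1 of each group. In FPKM the sums were 49.6, 64.0 and 67.0 in Ang II hearts and 47.8, 64.0 and 58.4 in control hearts.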
